A study of Mus musculus with 9 samples.

Results

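The LPS receptor complex and its signalling adaptors were followed through 10 genes chosen by name: Tlr4, Cd14, Ly96, Tirap, Myd88, Ticam2, Ticam1, Irak4, Irak1 and Traf6. All 10 were found, by symbol, among 55906 genes in an RNA sequencing table of BV2, a mouse microglial cell line that grows without limit in culture. The line was wildtype, and there were 3 libraries each of cells given LPS together with Pilo (LPS+Pilo), cells given LPS alone (LPS) and cells given neither (Control). LPS is lipopolysaccharide, the outer membrane component of Gram-negative bacteria. The labels do not spell out Pilo, though the series title names the M3 muscarinic receptor, and the sources used here give neither dose nor time. All libraries came from 1 cell line, and the labels name biological replicates without naming separate cultures, so p-values measure the spread between these libraries. In cell cultures measured in bulk, fewer expressing cells and less RNA per cell cannot be told apart.

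LPS is picked up by the lipid-binding protein CD14 and passed to TLR4, which binds it together with the small secreted protein MD-2, the product of Ly96. The cytoplasmic TIR domain of TLR4 then recruits pairs of adaptors in turn. At the plasma membrane TIRAP brings in MyD88, which assembles the kinases IRAK4 and IRAK1 and the ubiquitin ligase TRAF6 and leads to NF-kB and inflammatory cytokines. From endosomes TRAM, encoded by Ticam2, brings in TRIF, encoded by Ticam1, which leads to interferon-beta and interferon-inducible genes. CD14 is also known to be needed for the uptake of TLR4 into endosomes in macrophages.

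Levels are given in TPM (abundance per transcript length, set to 1 common library sum), a share of each library that allows genes to be compared. A gene was tested where 3 or more libraries reached 1 TPM, which left 11260 genes, and all 10 genes of the receptor complex and adaptors were among them. Of 12 microglia or macrophage markers 11 were also among them, whereas P2ry12, a marker of resting microglia, fell below the filter. By mean over the libraries, 2 of the 12 were below 1 TPM. Summed over the 12 markers, the level was 2882 to 2944 TPM in LPS+Pilo libraries, 3114 to 3206 TPM in LPS libraries and 3559 to 3698 TPM in Control libraries. Markers of 7 other cell types were also read: 27 of the 29 had a mean below 1 TPM, and 13 of them were listed at 0 in every library. The exceptions were the tubulin gene Tubb3 and the myelin gene Mbp, at means of 344 and 5.05 TPM. The sum of the 5 neuronal markers, mostly Tubb3, was 383 to 457 TPM in LPS+Pilo libraries, 306 to 403 TPM in LPS libraries and 164 to 367 TPM in Control libraries. The part of either marker sum in the results was not tested. A pair of libraries stood at one end of the second principal component of all tested genes (22% of variance), LPS replicate 3 at -21.5 and Control replicate 2 at -17.7, and Control replicate 1 lay farthest out at the other end, at 34.0.

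The 10 genes covered a wide range of levels in these cells. Cd14 was the most abundant, at a mean of 260 TPM over the 9 libraries, followed by Myd88 at 114 TPM. Irak1 (16.9 TPM) and Ticam1 (10.4 TPM) were intermediate, and Irak4 stood at 4.48 TPM. The remaining genes were low: Ly96 at 2.84, Tirap at 2.80, Traf6 at 2.51, Tlr4 at 1.94 and Ticam2 at 1.75 TPM. From Cd14 down to Ly96 the gene higher in this order was also the higher one in each of the 9 libraries. Ranges over the 9 libraries overlapped between Cd14 and Myd88, Irak1 and Ticam1, and Irak4 and Ly96 all the same. Among the 5 low genes the order was less uniform: Ly96 exceeded Tirap in 4 of 9 libraries, Tirap exceeded Traf6 in 8, Traf6 exceeded Tlr4 in 8 and Tlr4 exceeded Ticam2 in 7. Neighbours in this order were not tested against each other. In Control libraries Cd14 stood above 90.4% of tested genes by mean TPM and Tlr4 above 11.4%. The genes of the receptor and of MD-2 thus lay near the low end of the tested genes.

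**Figure D1:**
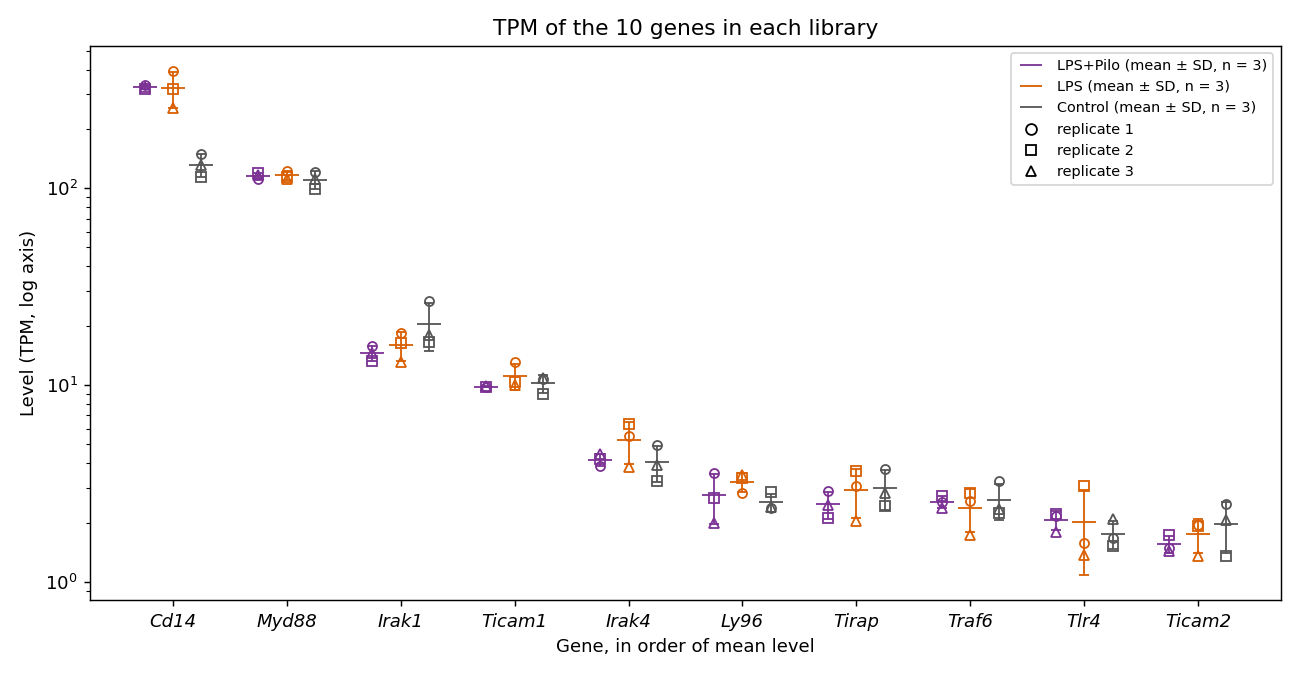
TPM of the 10 genes in each of the 9 libraries, on a log axis, ordered by mean level; colours mark the groups, symbols the replicate numbers, and bars the mean ± SD (n = 3). Cd14 lies at 256 to 393 TPM in LPS libraries and at 114 to 149 TPM in Control libraries, while each of the other 9 genes has LPS values that overlap its Control values.

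Expression of Cd14 rose with LPS. It was at 393, 319 and 256 TPM in LPS libraries 1 to 3, against 149, 114 and 131 TPM in Control libraries 1 to 3. The lowest LPS library was above the highest Control library. The mean was 323 ± 68.4 TPM in LPS and 131 ± 17.7 TPM in Control (SD, n = 3 each), 2.46 times as high. Fitted with limma on log2(TPM + 1), as were all fold changes below, the log2 fold change was 1.28 ± 0.15 (SE; Benjamini-Hochberg adjusted p = 8.16e-04 over all tested genes). It ranged from 1.13 to 1.43 over 16 alternative settings and stayed past the threshold in each. Without LPS replicate 3 it was 1.43 and without Control replicate 2 it was 1.18.

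Cd14 was the 1 gene of the 10 called in LPS against Control (adjusted p under 0.05), with 0 lower. Over all tested genes 7.76% were called in this comparison, 4.12% higher and 3.64% lower. An unadjusted p under 0.05, which 22.7% of tested genes had, was found for 1 of the 10. Cd14 was also the 1 gene of the 10 whose LPS and Control libraries did not overlap, where 24.2% of tested genes did not. By fold change Cd14 ranked 113 of the 464 genes called higher. The median log2 fold change of the 10 genes was 0.08, and that of all tested genes was 0.07. Because Cd14 is so abundant, its share of the summed TPM of the 10 genes was 63.4% to 69.6% in LPS libraries, against 45.2% to 45.7% in Control libraries.

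The receptor gene itself did not pass the test. Tlr4 was at 1.58, 3.06 and 1.37 TPM in LPS libraries, against 1.66, 1.52 and 2.08 TPM in Control libraries. The single high value, LPS replicate 2, was above every other library, and the groups overlapped. The log2 fold change was 0.09 ± 0.21 (adjusted p = 0.836, 95% confidence interval -0.38 to 0.56), and it was -0.15 without LPS replicate 2.

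Ly96, whose product MD-2 forms the LPS-binding pocket with TLR4, was at 2.82, 3.36 and 3.50 TPM in LPS libraries, against 2.36, 2.85 and 2.40 TPM in Control libraries. The groups overlapped by 1 pair of values, Control replicate 2 and LPS replicate 1. The log2 fold change was 0.26 ± 0.18 (adjusted p = 0.427, interval -0.14 to 0.65).

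Among the adaptors, Myd88, the hub of the plasma membrane arm, had the narrowest spread. It was at 122, 114 and 111 TPM in LPS libraries, against 121, 98.7 and 112 TPM in Control libraries. The groups overlapped, and the log2 fold change was 0.07 ± 0.09 (adjusted p = 0.672), with an interval of -0.13 to 0.28. Over all 9 libraries Myd88 stayed between 98.7 and 122 TPM.

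Ticam1, the gene of TRIF, was at 13.1, 10.4 and 10.01 TPM in LPS libraries, against 10.8, 8.97 and 10.9 TPM in Control libraries. LPS replicate 1 was the highest library, and the others overlapped (log2 fold change 0.11 ± 0.13, adjusted p = 0.656, interval -0.19 to 0.42). The bridging adaptor genes were low in both groups. Ticam2 was at 1.95, 1.92 and 1.35 TPM in LPS libraries, against 2.49, 1.36 and 2.06 TPM in Control libraries (-0.11 ± 0.18, adjusted p = 0.762). Tirap was at 3.05, 3.66 and 2.04 TPM in LPS libraries, against 3.76, 2.43 and 2.84 TPM in Control libraries (-0.04 ± 0.20, adjusted p = 0.923). For both, the values of the groups interleaved.

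Downstream of the adaptors, Irak4, the first kinase recruited by MyD88, was at 5.49, 6.37 and 3.85 TPM in LPS libraries, against 4.94, 3.27 and 3.91 TPM in Control libraries (0.30 ± 0.19, adjusted p = 0.386). Irak1, the kinase that IRAK4 phosphorylates, was at 18.3, 16.4 and 13.02 TPM in LPS libraries, against 26.8, 16.5 and 17.9 TPM in Control libraries (-0.32 ± 0.19, adjusted p = 0.349). Control replicate 1 was far above the other Irak1 values, and without it the log2 fold change was -0.12. Traf6, whose product builds the ubiquitin chains that activate the kinase TAK1, was at 2.58, 2.82 and 1.72 TPM in LPS libraries, against 3.24, 2.24 and 2.34 TPM in Control libraries (-0.10 ± 0.18, adjusted p = 0.768). For the 9 genes other than Cd14 the 95% intervals together spanned -0.75 to 0.72. Changes within those bounds were not resolved with 3 libraries a group, and log2(TPM + 1) understates the change of the low genes.

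**Figure D2:**
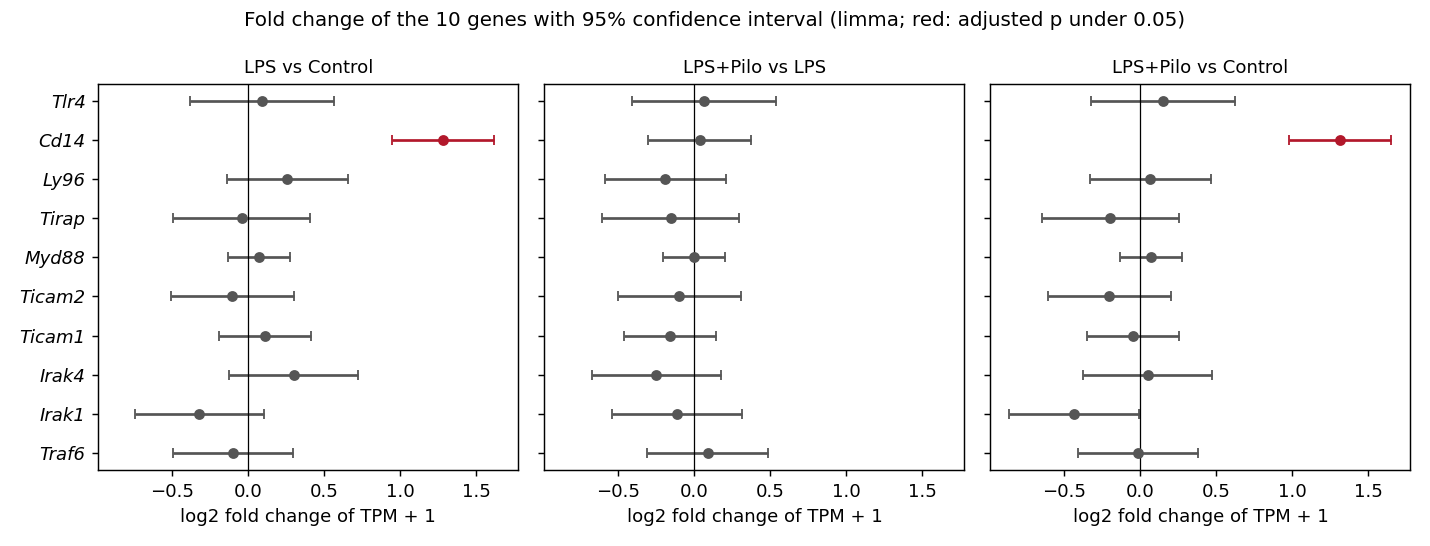
log2 fold change of TPM + 1 with its 95% confidence interval (limma, 9 libraries) for the 10 genes in the 3 comparisons, with red for an adjusted p under 0.05. Cd14 is at 1.28 in LPS against Control, 0.03 in LPS+Pilo against LPS and 1.31 in LPS+Pilo against Control; every other interval includes 0 except that of Irak1 in LPS+Pilo against Control (-0.86 to -0.01).

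The promoter windows of 3 genes are shown because they stand for the 2 adaptor arms and the kinase with the lowest fold change. RefSeq windows of 300 bases on GRCm38.p6, from 250 bases before to 50 bases after a gene start, were matched to 6 of the 10 genes (Myd88, Ticam1, Tirap, Irak4, Irak1 and Traf6), giving 8 windows. The windows of Myd88 (chr9:119339969-119340268), Ticam1 (chr17:56276718-56277017) and Irak1 (chrX:74023872-74024171) all lie on the minus strand and are printed 5′ to 3′ as read. Capitals mark the letters of an interferon response element in Myd88 (GAAA, any 2 bases, GAAA) and of an NF-kB motif in Irak1 (GGGA, any 4 bases, CC).
Myd88: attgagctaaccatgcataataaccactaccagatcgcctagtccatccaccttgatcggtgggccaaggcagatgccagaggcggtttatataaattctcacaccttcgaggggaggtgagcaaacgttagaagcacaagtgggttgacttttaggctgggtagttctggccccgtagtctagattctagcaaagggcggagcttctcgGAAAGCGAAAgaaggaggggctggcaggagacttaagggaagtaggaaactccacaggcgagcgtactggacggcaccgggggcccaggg
Ticam1: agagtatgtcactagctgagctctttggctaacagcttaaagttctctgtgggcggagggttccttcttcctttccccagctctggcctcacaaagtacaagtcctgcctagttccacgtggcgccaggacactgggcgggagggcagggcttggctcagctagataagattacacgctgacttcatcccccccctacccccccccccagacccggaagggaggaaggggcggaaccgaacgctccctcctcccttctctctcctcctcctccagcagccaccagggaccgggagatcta
Irak1: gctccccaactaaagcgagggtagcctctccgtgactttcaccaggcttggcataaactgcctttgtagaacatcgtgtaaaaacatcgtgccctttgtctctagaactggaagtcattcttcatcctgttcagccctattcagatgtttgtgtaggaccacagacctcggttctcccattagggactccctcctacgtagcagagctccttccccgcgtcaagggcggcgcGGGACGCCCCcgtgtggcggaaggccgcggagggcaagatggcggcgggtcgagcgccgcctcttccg

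Both strands were searched for these motifs and for those of AP-1 (TGANTCA) and the cyclic AMP response element (TGACGTCA), and the printed windows hold at most 1 match each, so none overlap. The NF-kB letters occurred in 4 of the 8 windows, those of Irak1, Traf6 and 1 of the Tirap starts, against 20.7% of all 32851 windows. Both Irak1 windows hold the same site, and the Tirap windows also overlap, so windows are not independent. By gene the letters occurred in 3 of 6. The share of G and C bases was 54.0% to 69.0% in the 8 windows, beside a median of 52.7% over all windows. Its part in the matches was not tested. The NF-kB letters occurred in 7 of 10 windows of early MyD88-dependent target genes and in 4 of 9 windows of TRIF-dependent target genes. The interferon response element letters occurred in 1 of the 8 windows, that of Myd88, against 3.44% of all windows and in 5 of 9 windows of TRIF-dependent target genes. AP-1 and cyclic AMP response element letters occurred in 0 of the 8, against 7.81% and 1.79% of all windows. The match in Myd88 starts 40 bases before the gene start and that in the printed Irak1 window 18 bases before it. A match of letters is a description and was not tested for binding; neither gene passed the test with LPS.

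LPS+Pilo against LPS asked what Pilo added, and 0 of the 10 genes passed (limma; 0 also at an unadjusted p under 0.05). Over all tested genes 0.0444% were called (0.00888% higher and 0.0355% lower) and 6.76% had an unadjusted p under 0.05. Cd14 was at 334, 318 and 325 TPM in LPS+Pilo libraries, against 393, 319 and 256 TPM in LPS libraries. The LPS+Pilo values lay inside the LPS range. The mean was 326 ± 8.12 TPM in LPS+Pilo and 323 ± 68.4 TPM in LPS (SD, n = 3 each). The log2 fold change was 0.03 ± 0.15 (adjusted p = 0.982), with an interval of -0.30 to 0.37, and its sign turned under quantile normalization (-0.003858).

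Tlr4 was at 2.15, 2.22 and 1.79 TPM in LPS+Pilo libraries, inside the range of 1.37 to 3.06 TPM in LPS libraries (log2 fold change 0.06 ± 0.21, adjusted p = 0.979, interval -0.41 to 0.54). Ly96 was at 3.58, 2.68 and 2.00 TPM in LPS+Pilo libraries, against 2.82 to 3.50 TPM in LPS libraries (-0.19 ± 0.18, adjusted p = 0.893). Its LPS+Pilo libraries were the more scattered, with replicate 1 above and the other two below the LPS range.

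Myd88 was at 111, 119 and 117 TPM in LPS+Pilo libraries, against 111 to 122 TPM in LPS libraries (-0.0030 ± 0.09, adjusted p = 0.998, interval -0.21 to 0.20). Of the 10 genes this one had the narrowest interval. Ticam1 was at 9.78, 9.73 and 9.89 TPM in LPS+Pilo libraries, each below the lowest LPS library, at 10.01 TPM. It was the 1 gene of the 10 whose LPS+Pilo and LPS libraries did not overlap, where 12.2% of all tested genes did not, and it did not pass (-0.16 ± 0.13, adjusted p = 0.877).

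The remaining 5 genes, Ticam2, Tirap, Irak4, Irak1 and Traf6, overlapped between LPS+Pilo and LPS. Irak4 had the lowest fold change, with 3.86, 4.21 and 4.44 TPM in LPS+Pilo libraries, against 3.85 to 6.37 TPM in LPS libraries (-0.25 ± 0.19, adjusted p = 0.856). Ticam2 was at 1.44 to 1.72 TPM, Tirap at 2.10 to 2.88 TPM, Irak1 at 13.2 to 15.8 TPM and Traf6 at 2.38 to 2.72 TPM in LPS+Pilo libraries. Their fold changes lay between -0.15 and 0.09. Over the 10 genes 3 fold changes were positive and 7 negative, with a median of -0.11, beside -0.05 over all tested genes.

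Against Control, LPS+Pilo libraries showed the same single call, Cd14, with 1 higher and 0 lower where 10.2% of all tested genes were called, 4.85% higher and 5.3% lower. At an unadjusted p under 0.05, which 24% of tested genes had, 2 of the 10 passed, Cd14 and Irak1. The mean was 326 ± 8.12 TPM in LPS+Pilo and 131 ± 17.7 TPM in Control, 2.48 times as high. Its log2 fold change was 1.31 ± 0.15 (adjusted p = 5.76e-04). LPS against Control and LPS+Pilo against Control share the Control libraries, so these values are not independent.

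Irak1 lay lower in LPS+Pilo, at 15.8, 13.2 and 14.5 TPM, against 26.8, 16.5 and 17.9 TPM in Control libraries. The groups did not overlap, as for 30.5% of all tested genes. The log2 fold change of -0.44 ± 0.19 did not pass (adjusted p = 0.197, interval -0.86 to -0.01). It passed under quantile normalization (adjusted p = 0.0357) and median-ratio scaling (0.0415), and its adjusted p ranged from 0.0357 to 0.423 over the alternatives. The fold change was -0.23 without Control replicate 1. The other 8 genes had fold changes of -0.20 to 0.15 in LPS+Pilo against Control and overlapped between the groups.

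Levels of 2 genes were also set against each other within a library, as the log2 ratio of TPM + 1, for 6 pairs in 3 comparisons. The added 1 damps the ratios of genes at a few TPM, Tlr4, Ly96, Tirap and Ticam2 among them. The log2 ratio of Cd14 to Tlr4 was 6.73, 6.63 and 6.87 in LPS+Pilo libraries and 7.25, 6.30 and 6.76 in LPS libraries, against 5.82, 5.51 and 5.42 in Control libraries. All 3 LPS libraries lay above all 3 Control libraries, by 1.19 in the mean. The exact two-sided permutation p was 0.1, the smallest that 3 against 3 libraries allow, and 0.3 after Benjamini-Hochberg adjustment over the 18 tests. The log2 ratio of Irak1 to Irak4 was 1.79, 1.45 and 1.51 in LPS+Pilo libraries and 1.57, 1.237 and 1.53 in LPS libraries, against 2.23, 2.04 and 1.94 in Control libraries. Every LPS+Pilo and LPS library was below every Control library, with mean differences of -0.48 for LPS+Pilo and -0.62 for LPS (exact permutation p = 0.1 and adjusted 0.3 for each). A ratio does not show which of the genes moved.

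The log2 ratio of Myd88 to Ticam1, the adaptors of the plasma membrane and endosomal arms, was 3.38, 3.49 and 3.43 in LPS+Pilo libraries, against 3.13, 3.34 and 3.35 in LPS libraries. The LPS+Pilo libraries were the higher ones, by 0.16 in the mean (exact permutation p = 0.1, adjusted 0.3), and they were also above the Control libraries, at 3.38, 3.32 and 3.24, by 0.12. In the Control comparison the closest pair of libraries both read 3.38 at this rounding. For LPS against Control this ratio differed by -0.04 with overlap (exact permutation p = 0.7). The ratios of Ly96 to Tlr4, Tirap to Ticam2 and Ticam1 to Ticam2 overlapped in all 3 comparisons (exact permutation p from 0.2 to 1.0).

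**Figure D3:**
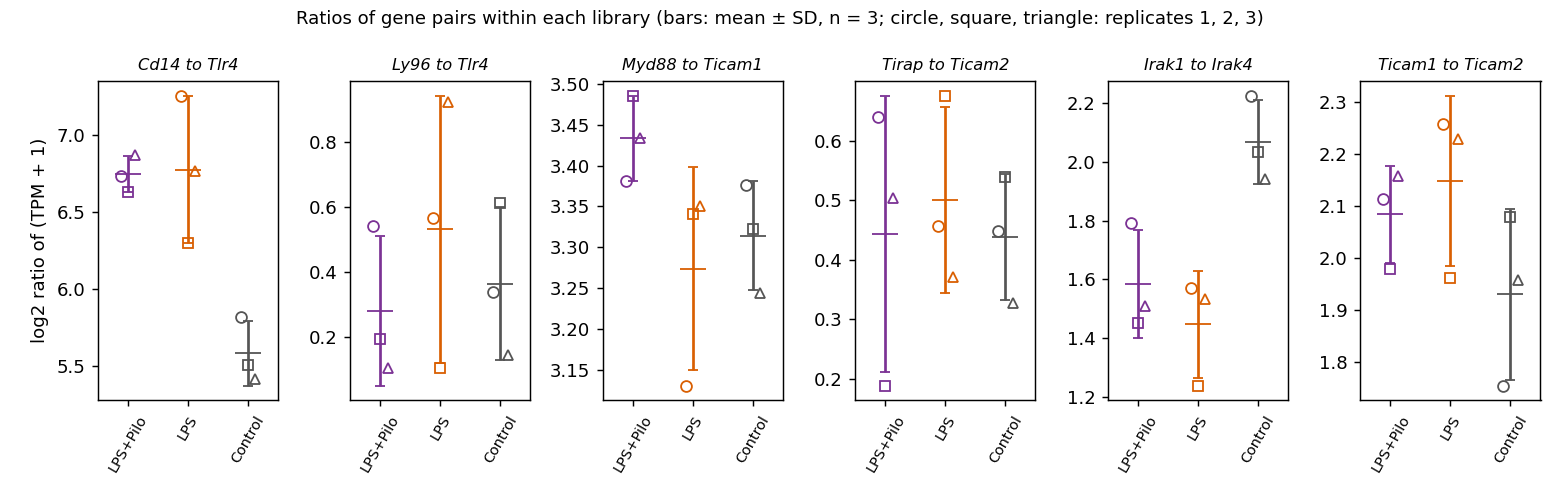
log2 ratio of TPM + 1 for 6 pairs of genes in each library, with symbols for replicates 1 to 3 and bars for mean ± SD (n = 3); each panel has its own axis, which does not start at 0. The Cd14 to Tlr4 ratio is higher in LPS+Pilo and LPS than in Control libraries, the Irak1 to Irak4 ratio is lower in both, and the Myd88 to Ticam1 ratio is highest in LPS+Pilo libraries.

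Within a group, most of the 10 genes were low in the same library. LPS replicate 3 held the lowest LPS value for 9 of the 10 genes, all except Ly96, and Control replicate 2 the lowest Control value for the same 9. Over all tested genes these libraries held the lowest value of their group for 66.3% and 60.5%. Control replicate 1 held the highest Control value for 7 of the 10 genes, Irak1 among them, and for 62.6% of all tested genes. Ly96 ran the other way, with its highest LPS value in LPS replicate 3 and its highest Control value in Control replicate 2. In LPS+Pilo no library held the lowest value for more than 4 of the 10.

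The spread of Cd14 between libraries of a group was larger than for most genes of its level. Its pooled SD on the log2 scale was 0.21, above that of 80.2% of the 500 tested genes nearest to it in mean level. Ticam1 was at the other end, with an SD of 0.14, above that of 16.8% of its 500 nearest genes.

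Genes most like Cd14 over the 9 libraries were the chemokine gene Ccl5 (Pearson r = 0.996), Padi2, which encodes a peptidylarginine deiminase (0.995), and Osm, the gene of the IL-6 family cytokine oncostatin M (0.995). These are descriptions over libraries that share groups, and they carry no p. Ccl5 averaged 61.5 ± 2.89 TPM in LPS+Pilo, 60.5 ± 15.5 TPM in LPS and 9.93 ± 2.86 TPM in Control. Osm averaged 24.1 ± 1.21, 22.65 ± 5.03 and 10.3 ± 1.84 TPM in the same groups, and Padi2 averaged 9.55 ± 0.257, 9.86 ± 1.37 and 4.31 ± 0.339 TPM.

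Genes around the receptor were read from lists of known pathway members. Their counts are to be read beside the share of all tested genes called. That share was 7.76% in LPS against Control, 10.2% in LPS+Pilo against Control and 0.0444% in LPS+Pilo against LPS. No list was tested as a set. Of 11 tested genes of LPS delivery and TLR4 folding 0 passed with LPS (limma), and 1 passed, lower, under quantile normalization and under median-ratio scaling. The related receptor pair of Cd180 (RP105), a TLR4 homologue without a TIR domain, and Ly86 (MD-1), its MD-2-like partner, went down in LPS+Pilo against Control. Cd180 was at 15.9 ± 0.348 TPM in LPS+Pilo and 27.95 ± 5.03 TPM in Control (log2 fold change -0.76 ± 0.14, adjusted p = 0.00711). Ly86 was at 11.3 ± 1.59 TPM in LPS+Pilo and 23.2 ± 2.32 TPM in Control (-0.98 ± 0.15, adjusted p = 0.00316). In LPS libraries Cd180 was at 25.0 ± 2.498 TPM and Ly86 at 15.9 ± 2.34 TPM. Neither passed in LPS+Pilo against LPS (-0.61, adjusted p = 0.321, and -0.45, adjusted p = 0.536) or in LPS against Control (-0.15, adjusted p = 0.559, and -0.53, adjusted p = 0.0627).

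In LPS+Pilo against Control 1 gene of the list was higher and 3 lower, beside 10.2% called of all tested genes. The others called were Cnpy3, a chaperone of Toll-like receptors (-0.36, adjusted p = 0.0225), and the small GTPase gene Arf6 (0.37, adjusted p = 0.0426). Neither passed in LPS against Control (-0.24, adjusted p = 0.114, and 0.12, adjusted p = 0.497). Nor did they in LPS+Pilo against LPS (-0.12, adjusted p = 0.841, and 0.25, adjusted p = 0.666). In LPS+Pilo against Control, Cnpy3 missed the threshold without LPS+Pilo replicate 1 (0.0848) or 2 (0.0717), without Control replicate 2 (0.0652) or 3 (0.105) and under median-ratio scaling (0.102). Arf6 missed it under 11 of the 16 alternatives, with an adjusted p as high as 0.156. The list had 2 calls, both lower, without LPS+Pilo replicate 2, Control replicate 2 or Control replicate 3. The serum carrier gene Lbp averaged 0.26 TPM in LPS+Pilo, 0.04 TPM in LPS and 0.0767 TPM in Control and was not tested.

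Of 18 tested genes downstream in the MyD88 arm 2 were higher and 0 lower with LPS, beside 7.76% called of all tested genes. Under quantile normalization and under median-ratio scaling 3 were higher and 1 lower. Irak3, which encodes IRAK-M, a pseudokinase that restrains the receptor complex, averaged 4.03 ± 0.567 TPM in LPS+Pilo, 3.54 ± 0.907 TPM in LPS and 0.907 ± 0.372 TPM in Control (LPS against Control 1.25 ± 0.21, adjusted p = 0.00598; 1.89 at a pseudocount of 0.1). Map3k8, the kinase gene of the ERK branch, averaged 1.66 TPM in LPS and 0.567 TPM in Control (0.75 ± 0.17, adjusted p = 0.0267; 1.40 at a pseudocount of 0.1). Its call was lost without LPS replicate 1 (0.0933) or 2 (0.0703) or Control replicate 2 (0.0903) or 3 (0.0567), and the list then kept 1 call in each case. Irak2, the third kinase of the family, averaged 21.6 TPM in LPS and 16.5 TPM in Control and did not pass (0.36 ± 0.18, adjusted p = 0.264).

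Of 12 tested genes of the TRIF arm 1 was higher and 0 lower with LPS, beside 7.76% called of all tested genes. It was Ikbke, which encodes the kinase IKK-epsilon, at 13.7 ± 0.623 TPM in LPS and 6.90 ± 0.675 TPM in Control (0.90 ± 0.14, adjusted p = 0.00509). Without LPS replicate 3 the list had 4 higher and without Control replicate 1 it had 3, while quantile normalization gave 2 and median-ratio scaling 3. In LPS+Pilo against Control 3 were higher, beside 10.2% called of all tested genes. They were Ikbke again (0.73, adjusted p = 0.0115), Irf7, a transcription factor gene of the interferon response (1.08, adjusted p = 0.0392), and Tbkbp1, an adaptor gene of the kinase TBK1 (0.35, adjusted p = 0.0382). Irf7 and Tbkbp1 did not pass in LPS against Control (0.98, adjusted p = 0.0683, and 0.27, adjusted p = 0.108). Nor did they in LPS+Pilo against LPS (0.10, adjusted p = 0.978, and 0.08, adjusted p = 0.911). In LPS+Pilo against Control, Ikbke missed the threshold without LPS+Pilo replicate 1 (0.0538) or 3 (0.0573) or Control replicate 3 (0.0515). Irf7 missed it under 8 alternatives and Tbkbp1 under 11. The list had 0 calls without LPS+Pilo replicate 3 or Control replicate 3, and 1 without LPS+Pilo replicate 1 or 2, LPS replicate 2 or Control replicate 2.

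Of 20 tested inhibitors of the receptor and adaptors 2 were higher and 1 lower with LPS, beside 7.76% called of all tested genes. Siglec1, encoding a sialic acid-binding lectin, was higher (1.18, adjusted p = 0.0166), as was Tnfaip3, which encodes the ubiquitin-editing enzyme A20 (0.95, adjusted p = 0.0195; 1.65 at a pseudocount of 0.1). Tmem106a, a macrophage membrane protein gene, was at 19.5 ± 1.76 TPM in LPS and 34.8 ± 3.31 TPM in Control (-0.81 ± 0.14, adjusted p = 0.00762), and its call was kept in all 16 alternatives. The calls of Siglec1 and Tnfaip3 were both lost without LPS replicate 1 (0.0598 and 0.0595) or Control replicate 3 (0.0539 and 0.0851), which left 1 called in the list each time. Without Control replicate 2 both were lost as well (0.0554 and 0.0671), and without LPS replicate 2 Siglec1 was lost (0.0674). In LPS+Pilo against Control 1 was higher, Siglec1 (1.09, adjusted p = 0.0192), and 1 lower, Tmem106a (-1.26, adjusted p = 4.77e-04). Siglec1 was lost there without any 1 of the LPS+Pilo libraries (0.0626 to 0.0727) or without Control replicate 2 (0.0593) or 3 (0.0545).

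Intracellular LPS is sensed apart from TLR4, by caspase-11, the product of Casp4. Of 5 tested genes of this list 2 were higher with LPS, beside 7.76% called of all tested genes. Casp4 averaged 3.40 ± 0.769 TPM in LPS+Pilo, 3.57 ± 1.244 TPM in LPS and 0.753 ± 0.123 TPM in Control (LPS against Control 1.35 ± 0.22, adjusted p = 0.00599; 2.05 at a pseudocount of 0.1). The inflammasome sensor gene Nlrp3 (0.80, adjusted p = 0.0373) lost its call in 9 of 16 alternatives, with an adjusted p of up to 0.141, without any 1 of the LPS+Pilo libraries, LPS replicates 1 and 2 or Control replicates 2 and 3 among them.

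Genes known as targets of the 2 arms were read next. Neither arm was blocked in these groups and no time is given. The list names thus do not assign a change to 1 arm or to an early phase. Of 8 tested early MyD88-dependent targets 8 were higher with LPS, where 7.76% of all tested genes were called in either direction. Their median log2 fold change was 2.03, beside 0.07 over all tested genes. Il6, Il1b, Cxcl2, Tnfaip3, Ptgs2 and Nfkbiz averaged under 1 TPM in Control and reached the filter mainly through libraries given LPS. The count and the median thus follow in part from the filter. Irak3, Map3k8 and Casp4, also under 1 TPM in Control, entered in the same way. The log2 fold change was 3.90 for Tnf, a main inflammatory cytokine gene, 3.39 for the NF-kB cofactor gene Nfkbiz, 3.03 for the chemokine gene Cxcl2 and 2.44 for the cytokine gene Il6. Their order turned with the pseudocount: at 0.1 in place of 1 the values were 3.99 for Tnf, 4.24 for Nfkbiz, 5.19 for Cxcl2 and 5.31 for Il6, which averaged 0.0167 TPM in Control. Of 8 tested TRIF-dependent targets 3 were higher and 0 lower, the chemokine genes Ccl5 (2.49) and Cxcl10 (2.30) and the ubiquitin-like modifier gene Isg15 (1.13), with a median of 0.98. Leaving out 1 library gave 6 to 8 early MyD88-dependent targets, and the other alternatives gave 7 or 8. Without LPS replicate 3 the count was 7 of the TRIF-dependent targets. Without LPS replicate 1 Isg15 was lost (adjusted p = 0.0538), leaving 2. Ifnb1, the gene of interferon-beta, averaged 0.383 TPM in LPS and 0.157 TPM in Control and was not tested.

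In LPS+Pilo against LPS 0 genes of any of the 7 lists passed (limma), where 0.0444% of all tested genes did. The medians were 0.01 for early MyD88-dependent targets and -0.36 for TRIF-dependent targets, beside -0.05 over all tested genes. Cxcl10 averaged 37.1 ± 3.78 TPM in LPS+Pilo and 57.5 ± 18.02 TPM in LPS (-0.58 ± 0.24, adjusted p = 0.705). Tnf averaged 166 ± 16.1 TPM in LPS+Pilo and 190.3 ± 10.2 TPM in LPS and also did not pass (-0.20 ± 0.10, adjusted p = 0.771). Cxcl2 lay the other way, at 18.8 ± 0.875 TPM in LPS+Pilo and 9.29 ± 5.62 TPM in LPS (1.09 ± 0.32, adjusted p = 0.502). Against Control, LPS+Pilo had 7 of 8 early MyD88-dependent targets and 3 of 8 TRIF-dependent targets higher. Over all tested genes 10.2% were called in that comparison, 4.85% higher and 5.3% lower. Il6, Il1b, Cxcl2, Ptgs2 and Nfkbiz reached the filter mainly through libraries given LPS, so the early target count follows in part from the filter. The TRIF-dependent targets called were Ccl5 (2.55), Cxcl10 (1.72) and Irf7 (1.08), which is also counted in the TRIF arm list. Isg15 did not pass there (0.79, adjusted p = 0.0505). The early target that did not pass was Tnfaip3, at 0.807 ± 0.159 TPM in LPS+Pilo, 2.24 ± 0.320 TPM in LPS and 0.717 ± 0.459 TPM in Control. Nor did Tnfaip3 pass in LPS+Pilo against LPS (-0.84 ± 0.20, limma adjusted p = 0.366). It is also counted in the list of inhibitors.

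**Figure D4:**
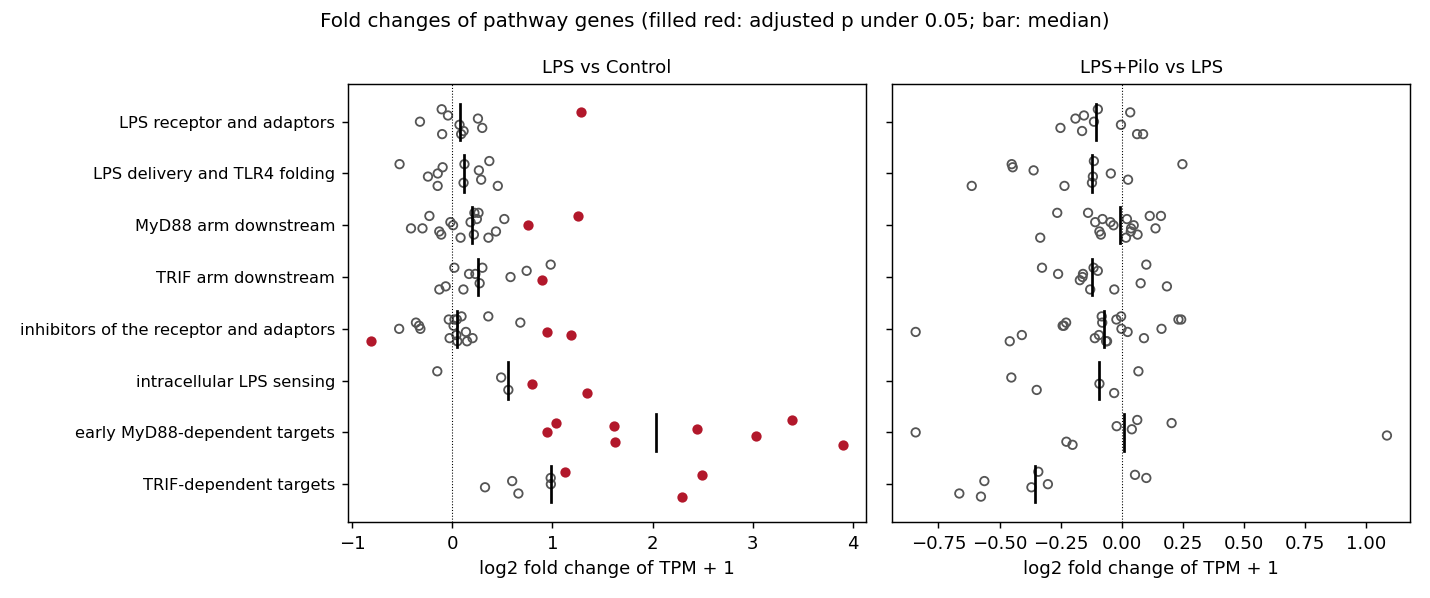
log2 fold change of TPM + 1 of each tested gene in the receptor complex and adaptors and in 7 pathway lists, for LPS against Control and LPS+Pilo against LPS; the axes differ in scale, filled red points had an adjusted p under 0.05 (limma) and bars mark the median. With LPS, 1 of the 10 receptor and adaptor genes is filled and 8 of 8 early MyD88-dependent targets are; in LPS+Pilo against LPS 0 genes are filled.

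Some of the 10 genes share genome positions with other genes in the GENCODE M21 annotation. Acaa1a overlaps Myd88 on the opposite strand and averaged 100.4 TPM, Srpr overlaps Tirap on the opposite strand (56.0 TPM) and Twf1 overlaps Irak4 on the opposite strand (9.23 TPM). Tmed7, which overlaps Ticam2 on the same strand, averaged 22.9 TPM. The sources used here do not say whether reads were counted by strand, so the levels of Myd88, Tirap, Irak4 and Ticam2 are uncertain by what these neighbours contribute. Tlr4, Cd14, Ly96, Ticam1 and Traf6 overlap no other annotated gene.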

How the data were processed

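RNA of BV2 cells was extracted with TRIzol and libraries were made with the TruSeq RNA kit, per the labels' protocols. The authors deposited 1 table of TPM, 2 decimals, for 55906 genes in 9 libraries, each summing to 1000000 within rounding. The submitters' processing notes list fastp 0.19.5, STAR 2.7.1a, DESeq2 1.24.0 and GRCm39; the program that gave TPM and its strand setting do not appear there. TPM hold no counts, so depth is unknown and a rise in abundant genes lowers the shares of others. Symbols came from GENCODE M21 by Ensembl identifier (52081 genes matched), on the earlier build GRCm38; only promoter windows carry coordinates.

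Genes that reached 1 TPM in 3 or more libraries were transformed to log2(TPM + 1) and fitted together in limma 3.58.1 (R 4.3.3), 1 mean per group, trended variances, 6 residual degrees of freedom, two-sided tests and Benjamini-Hochberg adjustment over 11260 genes. Ratios within libraries used exact permutation tests (scipy 1.17.1). The fit was tested on simulated data. The genes, lists and pairs were chosen with earlier results of these data known. Named genes were the 10 genes, up to 4 called genes with the largest fold change per list and comparison, and the 3 genes most like Cd14; other named genes (Lbp, Irak2, Ifnb1, and values of named genes in further comparisons) were chosen after their values were seen. Alternatives were another pseudocount (0.1), no filter, quantile and median-ratio scaling, fits of 2 groups, untrended variances, a replicate block and leaving out each library.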

Additional observations from a re-analysis of the deposited data

How the results depend on the processing

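Each of the 30 fold changes of the 10 genes was recomputed under 16 alternatives, 480 values in all. Of these 454 kept their direction and their side of the threshold, 24 turned their sign and 2, both of Irak1 in LPS+Pilo against Control, newly passed (-0.47 under quantile normalization and -0.45 under median-ratio scaling), so 2 of the 10 genes were called there; the cause was not tested. The turned values had adjusted p of 0.649 or more. Quantile normalization turned Tlr4 (-0.01977) and Ticam1 (-0.01122) in LPS against Control, Cd14 in LPS+Pilo against LPS (-0.003858) and Irak4 in LPS+Pilo against Control (-0.006132); median-ratio scaling turned Myd88 in LPS+Pilo against LPS (0.04416). Leaving out 1 library gave, in LPS against Control, -0.15 to 0.24 for Tlr4, -0.0062 to 0.14 for Myd88, -0.26 to 0.020 for Ticam2, -0.18 to 0.13 for Tirap and -0.20 to 0.047 for Traf6. In LPS+Pilo against LPS it gave -0.087 to 0.30 for Tlr4, -0.12 to 0.19 for Cd14, -0.032 to 0.037 for Myd88 and -0.060 to 0.18 for Traf6. In LPS+Pilo against Control it gave -0.087 to 0.22 for Ly96, -0.0092 to 0.14 for Myd88, -0.064 to 0.17 for Irak4 and -0.085 to 0.11 for Traf6. Differences of log2 ratios ran from -0.26 to 0.21 for Cd14 to Tlr4 in LPS+Pilo against LPS, from -0.029 to 0.38 (LPS against Control) and -0.22 to 0.039 (LPS+Pilo against Control) for Ly96 to Tlr4, and from -0.079 to 0.031 for Myd88 to Ticam1 in LPS against Control. For Tirap to Ticam2 they ran from -0.024 to 0.13 (LPS against Control), -0.15 to 0.071 (LPS+Pilo against LPS) and -0.092 to 0.13 (LPS+Pilo against Control).

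Over all genes, 874 were called in LPS against Control, 1516 under quantile normalization, 486 with only these groups and 414 to 1020 without 1 library, with 507 without LPS replicate 1, 466 without LPS replicate 2, 552 without Control replicate 2 and 414 without Control replicate 3. LPS+Pilo against LPS gave 5, with 1 under no filter, quantile normalization and the replicate block each, 2 under median-ratio scaling, 3 with only these groups or without the trend, and 0 to 6 without 1 library. LPS+Pilo against Control gave 1143, with 1726 under quantile normalization and 642 to 1286 without 1 library, with 735, 663 and 692 without LPS+Pilo replicate 1, 2 or 3 and 642 without Control replicate 3. With fewer libraries the fit also has fewer residual degrees of freedom; otherwise the cause was not tested. The share of called genes that were higher in LPS against Control was 53.1% as deposited and 40.5% under quantile normalization. Deviations of same-numbered libraries from their group means were weakly correlated (from -0.225 to 0.165). These values cannot decide whether such libraries were paired, and the labels do not say. With the replicate block as a term, Cd14 kept its call with LPS (limma, adjusted p = 0.000843) and 808 genes were called. With only the groups compared, the calls with LPS were 1 each in the MyD88 arm, the inhibitors and intracellular LPS sensing. The alternatives of the pathway lists and of the genes named from them were chosen after seeing the data. Depth cannot be had from TPM, and Tlr4, Ly96, Ticam2, Tirap and Traf6, all under 4 TPM, are the genes it limits most.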
